A study of Mus musculus with 6 samples.

Results

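Id2 and Id3 encode 2 of the Id proteins, helix-loop-helix proteins that lack the basic region with which related factors hold DNA. Id proteins pair with E proteins, such as those encoded by Tcf3, Tcf4 and Tcf12, and keep them from binding E-box sequences. Id2 is needed for the development of natural killer (NK) cells and other innate lymphoid cells, and Id3, its close relative, is best known for its roles in T and B cells. Here the sites bound by Eomes, a T-box transcription factor of NK cells, were mapped at both genes in mouse splenic NK cells. The members were the peaks that the authors' annotation assigned to the symbol Id2 or Id3 in 3 peak lists. There were 111 such peaks, and merging those that overlapped gave 67 of the 84399 regions found genome-wide, 61 at Id2 and 6 at Id3. Id2 was chosen by its number of regions in these same lists, so the counts and signal levels are given as a description, with no test.

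The C57BL/6 mice were wild-type and 8 to 12 weeks old, and NK cells from their pooled spleens were cultured for 4 days with IL-15 at 100 ng/mL, a cytokine that sustains NK cells. Each of 3 experiments gave 1 library of chromatin precipitated with an anti-Eomes antibody (IP) and 1 input library of DNA from chromatin that was not precipitated. There was 1 group of cells and 1 treatment, so the comparisons are between sites and between experiments. The cells were expanded in culture, each preparation pooled animals, and no IP from cells without Eomes was analysed here.

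Peak calling gave 37456 intervals in experiment 1, 33841 in experiment 2 and 46329 in experiment 3, with a median pileup (the coverage by IP reads or fragments at the peak summit) of 12, 11 and 14. The lowest pileup in each list was 8, 7 and 9, so binding below these levels could not be detected. How deeply each library was sequenced is not stated in the labels or headers. A reproducible region had a peak in at least 2 of the 3 experiments. Of 5 NK cell genes (Ncr1, Klrb1c, Prf1, Gzmb and Il2rb), 5 had a reproducible region, as did 1 of 6 T cell, B cell and myeloid genes (Cd3e, but not Cd3g, Cd8b1, Cd79a, S100a8 or Lyz2). Over all protein-coding genes the share was 44.8%. The lists are short and peaks measure binding and not expression, so this is a limited check of the cell type.

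Id2 lies on the minus strand of chromosome 12, chr12:25093799-25096092 (2294 bp, mm10). Id3 lies on the plus strand of chromosome 4, chr4:136143822-136145392 (1571 bp). Distances below run from the RefSeq start of each gene, 25096092 for Id2 and 136143822 for Id3, and are negative upstream. The 250 bases before each start are shown because peaks reached into both windows. The windows of Gm36496 and Gm36441, long noncoding RNA (lncRNA) genes of RefSeq upstream of Id2, are shown because each lies beside a region found in all 3 experiments. Capitals mark matches on either strand to the T-box words GGTGTGA and GTGTGA and the E-box words CAGGTG and CAGCTG. All sequences are RefSeq GRCm38.p6, the assembly behind mm10, written 5′ to 3′ along the strand of the gene.
Id2, minus strand of chr12:25096093-25096342: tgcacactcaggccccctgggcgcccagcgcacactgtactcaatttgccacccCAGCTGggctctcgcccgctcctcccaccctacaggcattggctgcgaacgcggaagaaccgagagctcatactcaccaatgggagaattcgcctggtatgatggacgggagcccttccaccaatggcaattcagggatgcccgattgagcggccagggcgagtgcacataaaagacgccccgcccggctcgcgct
Id3, plus strand of chr4:136143572-136143821: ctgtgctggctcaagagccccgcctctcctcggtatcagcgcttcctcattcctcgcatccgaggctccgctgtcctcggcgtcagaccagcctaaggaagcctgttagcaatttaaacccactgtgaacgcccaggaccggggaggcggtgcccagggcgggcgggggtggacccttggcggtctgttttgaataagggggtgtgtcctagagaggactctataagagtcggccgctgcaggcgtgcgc
Gm36496, minus strand of chr12:25190845-25191094: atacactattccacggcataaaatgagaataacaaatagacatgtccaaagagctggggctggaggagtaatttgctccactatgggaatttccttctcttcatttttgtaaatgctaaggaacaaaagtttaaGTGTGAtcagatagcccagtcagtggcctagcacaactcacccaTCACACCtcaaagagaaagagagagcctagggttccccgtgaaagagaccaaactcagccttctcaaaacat
Gm36441, minus strand of chr12:25209602-25209851: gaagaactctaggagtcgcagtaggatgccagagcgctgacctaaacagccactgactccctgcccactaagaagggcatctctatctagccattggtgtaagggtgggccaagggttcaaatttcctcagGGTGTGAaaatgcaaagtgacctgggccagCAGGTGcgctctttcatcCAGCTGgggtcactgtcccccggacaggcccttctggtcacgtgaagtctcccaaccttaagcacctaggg

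The Id2 window held CAGCTG once, 196 bases before the start, and neither T-box word. The Id3 window held none of the 4 words. It held the ETS word AGGAAG at 209 and 155 bases before the start, in lower case above. Gm36496 held GGTGTGA at 72 and GTGTGA at 116 and 72 bases before its start, and Gm36441 held GGTGTGA at 119, CAGGTG at 89 and CAGCTG at 71. GGTGTGA contains GTGTGA, and CAGGTG can overlap GGTGTGA. Over 32817 RefSeq promoter windows of the same length, 3.33% held GGTGTGA, 12.3% GTGTGA, 17.2% CAGGTG, 13.0% CAGCTG and 29.5% AGGAAG. The RUNX word TGTGGT (14.0% of windows) and the AP-1 word TGANTCA (6.75%) were in none of the 4. A match is a description of the letters, not a bound site, and the sequence under the distal peaks was not used here.

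Eomes peaks assigned to Id2 were spread over 350913 bp. The region at each end of this span came from 1 experiment. The one at the downstream end (fold 2.78) lay in an exon of the neighbouring gene Kidins220. The deposited assignment gave Id2 31, 34 and 39 peaks in experiments 1, 2 and 3. Of the 61 merged regions, 29 were reproducible (47.5%, against 23.8% of all merged regions) and 13 were found in all 3 experiments (21.3%, against 12.2%). The other 32 regions came from 1 experiment, 12 from experiment 1, 9 from experiment 2 and 11 from experiment 3. The count of reproducible regions rested on the experiments unequally, and was 23 without experiment 1, 18 without experiment 2 and 14 without experiment 3. Of the 16 regions found in exactly 2 experiments, 10 joined experiments 2 and 3, 5 joined 1 and 3, and 1 joined 1 and 2.

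The assigned regions lay almost wholly on the upstream side. Assignment by nearest start limits how far downstream Id2 can reach, since the start of Kidins220 lies 121160 bp away on that side. Of the 29 reproducible regions, 27 were upstream of the start and 2 downstream, and the outermost summits of any region lay at -293149 and 57618 bp. By the authors' classes, 24 were distal intergenic and 5 were promoter, a class that reaches 3000 bp from a transcript start. The 24 were 44.4% of the 54 distal intergenic regions at Id2, against 15.6% of such regions genome-wide. The 5 were 5 of 6 promoter regions (83.3%), against 38.1% genome-wide.

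**Figure D1:**
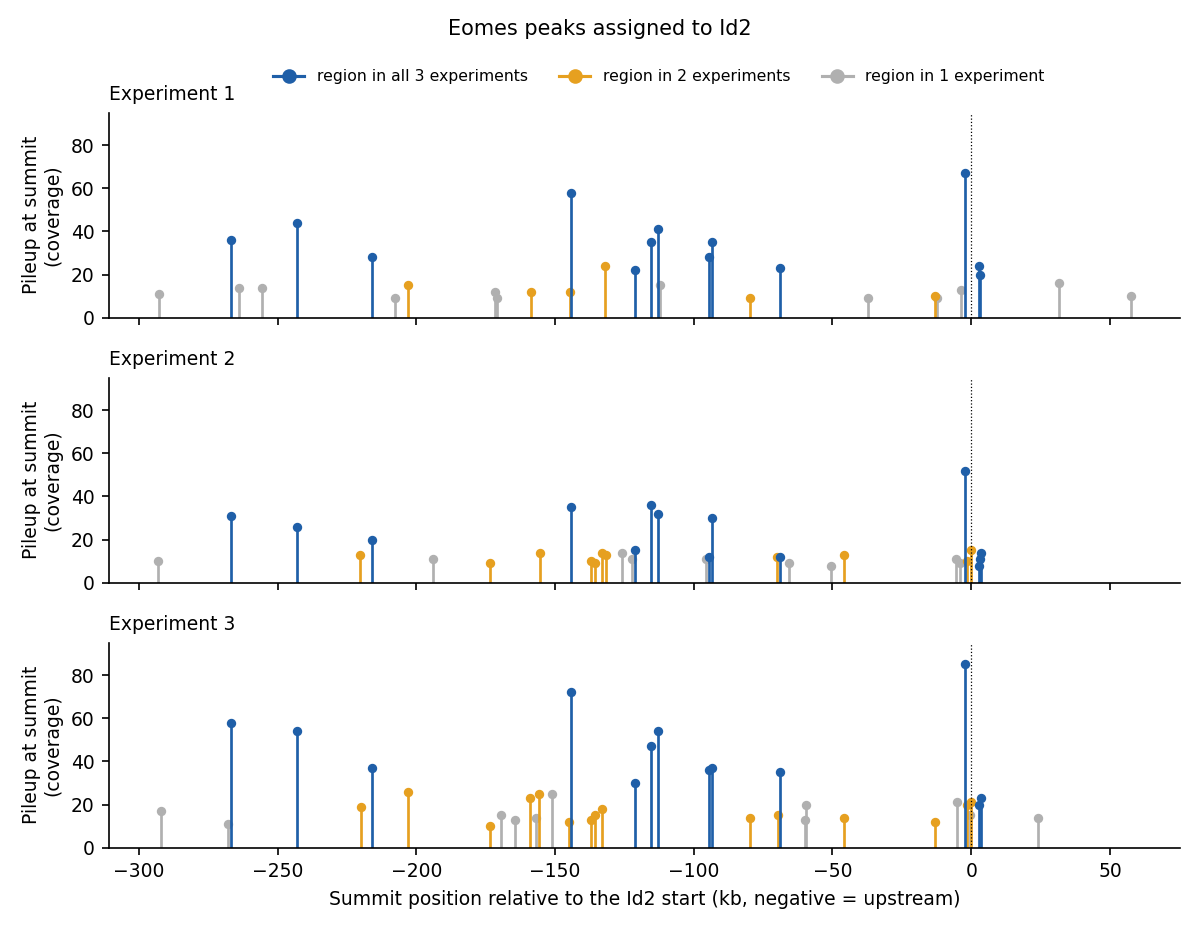
Pileup at the summit of every peak assigned to Id2 (vertical axis, coverage) against its distance from the Id2 start (horizontal axis, kb), 1 panel per experiment, coloured by the number of experiments in which the region was found. The tallest line in each panel stands just upstream of the start, at 67, 52 and 85, and a series of tall lines recurs in the 3 panels as far out as -266852 bp.

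The strongest region lay close to the gene. This leading region of Id2 (chr12:25098186-25099102) had its mean summit at -2300 bp from the start, in the promoter class. Its pileup was 67, 52 and 85 in experiments 1, 2 and 3, and the authors' fold enrichment over background was 19.1, 20.5 and 16.0, a mean of 18.5 ± 2.29 (SD, n = 3). It was the highest Id2 region in each experiment by both measures, and its lowest fold lay above the highest fold of any other Id2 region. By deposited q-value it stood in the top 0.200%, 0.313% and 0.423% of the 3 lists. Its mean fold lay above that of 99.0% of the 10328 regions found in all 3 experiments.

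The leading region had a second, weaker summit in 3 of 3 experiments. The first summit lay at -2310, -2304 and -2285 bp and the second at -2831, -2816 and -2860 bp, so the pair stood 521, 512 and 575 bp apart. The second summit had a pileup of 13, 20 and 32 and a fold of 4.02, 8.48 and 9.53. Relative to the first, its pileup was 0.194, 0.385 and 0.376, lowest in experiment 1.

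The start of Id2 itself was bound more weakly and not in every list. A region over the start (chr12:25095993-25096397) had a pileup of 15 in experiment 2 and 21 in experiment 3, with a fold of 4.96 ± 0.60 (SD, n = 2), and no peak in experiment 1. The summits, at -219 and -39 bp, were 180 bp apart. These peaks covered 51.2% and 62% of the 250-base window printed above. A further region at -1385 bp had a pileup of 10 and 20 in the same 2 experiments (4.68 ± 1.41).

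Beyond the end of the gene lay 2 regions found in all 3 experiments, which the authors' annotation mostly classed as promoter. The region at 3367 bp downstream of the start (chr12:25092367-25093191) had a pileup of 20, 14 and 23 and a fold of 5.31 ± 0.57 (SD, n = 3). Its summits spread over 444 bp, the widest spread of the 13. The strongest peaks by q-value stood at 3082 bp in experiment 1 and at 3493 and 3526 bp in experiments 2 and 3. Experiment 2 also had a peak at 3024 bp (pileup 11), and experiment 3 a second summit at 3098 bp (pileup 24, fold 3.13). All 3 experiments thus had a summit near 3082 bp, and the spread reflects which summit was kept. The region at 2688 bp (chr12:25093270-25093531) had a pileup of 24, 8 and 20 and a fold of 4.97 ± 1.61, the lowest mean of the 13. It was the only 1 of the 13 in which experiment 1 had the highest pileup.

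**Figure D2:**
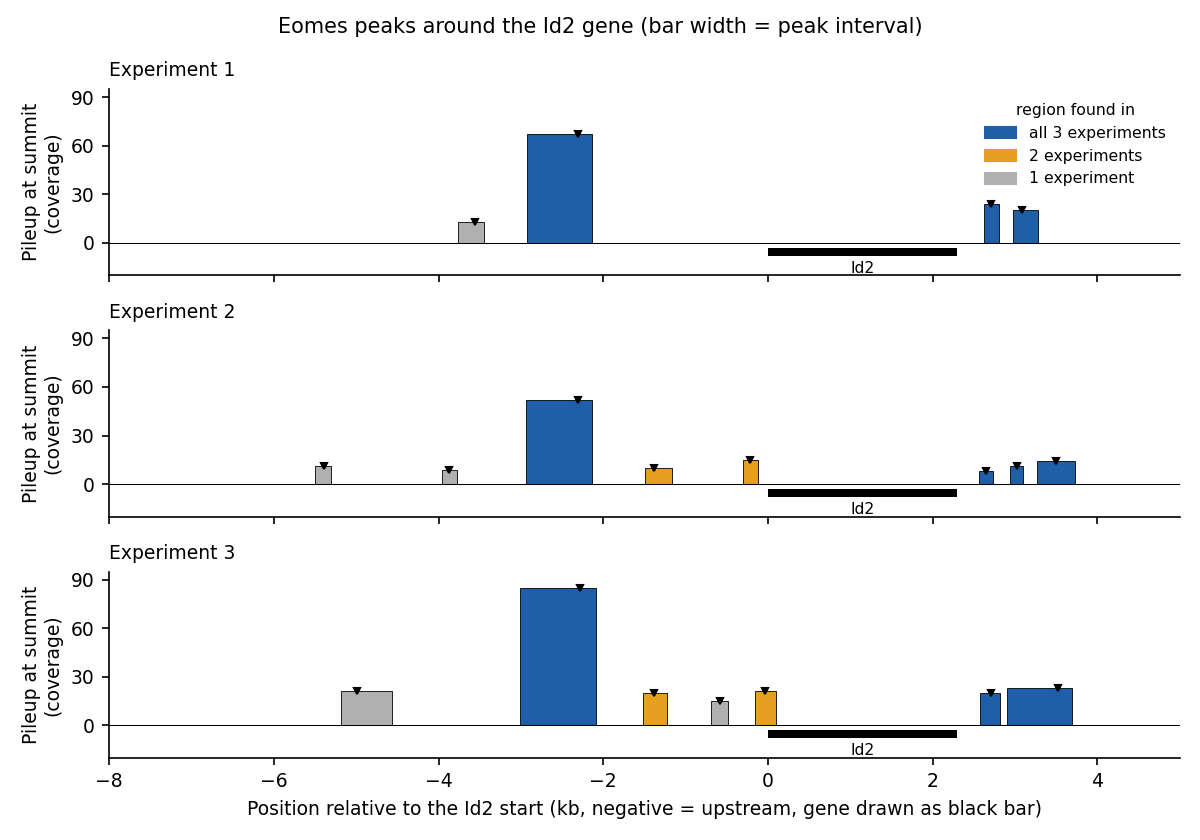
Peak intervals around the Id2 gene, 1 panel per experiment, with bar height giving the pileup at the summit (coverage), bar width the interval, triangles the summits and the black bar the gene (horizontal axis, kb from the start). The wide blue bar centred near -2300 bp rises above every other bar in the 3 panels, and the bars at the start appear in experiments 2 and 3.

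Between -68847 and -121021 bp lay 6 regions found in all 3 experiments, arranged as 2 close pairs and 2 others. Of these, the site at -112990 bp (chr12:25208915-25209255) had a pileup of 41, 32 and 54 and a fold of 12.7 ± 1.74 (SD, n = 3). Its partner at -115452 bp (chr12:25211314-25211889) had 35, 36 and 47 and a fold of 11.5 ± 2.36. It was the highest Id2 region after the leading one in experiment 2. The folds of this pair differed by less than their SD.

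The second pair lay at -93526 and -94551 bp. At -93526 bp (chr12:25189265-25189892) the pileup was 35, 30 and 37 and the fold 9.24 ± 0.83 (SD, n = 3), an even signal over the experiments. At -94551 bp (chr12:25190238-25190794) the pileup was 28, 12 and 36 and the fold 6.77 ± 2.54. Experiment 2 was low at this region, with 23.1% of the pileup of the leading region, against 41.8% and 42.4% in experiments 1 and 3. The region ended 51 bp short of the Gm36496 window printed above, and the region at -112990 bp lay 347 bp from the Gm36441 window.

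The remaining regions of this stretch were weaker. At -68847 bp (chr12:25164754-25165161) the pileup was 23, 12 and 35 and the fold 6.54 ± 2.73 (SD, n = 3), with experiment 3 well above the others. At -121021 bp (chr12:25216851-25217483) the pileup was 22, 15 and 30 and the fold 5.41 ± 1.06.

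Further out, 4 more regions were found in all 3 experiments. The site at -144244 bp (chr12:25239962-25240588) had a pileup of 58, 35 and 72, and a fold of 12.8 ± 1.89 (SD, n = 3). It reached 86.6%, 67.3% and 84.7% of the leading region's pileup and came next after it in experiments 1 and 3. The site at -215835 bp (chr12:25311775-25312102) had 28, 20 and 37 and a fold of 7.23 ± 1.65. It was the weakest of the 4.

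The 2 outermost of these sites were among the strongest. At -242927 bp (chr12:25338861-25339280) the pileup was 44, 26 and 54 and the fold 11.8 ± 2.74 (SD, n = 3), and the 3 summits fell within 6 bp of each other. At -266852 bp (chr12:25362774-25363126) the pileup was 36, 31 and 58 and the fold 13.1 ± 1.19, the highest mean after the leading region. Strength did not fall steadily with distance from the gene.

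**Figure D3:**
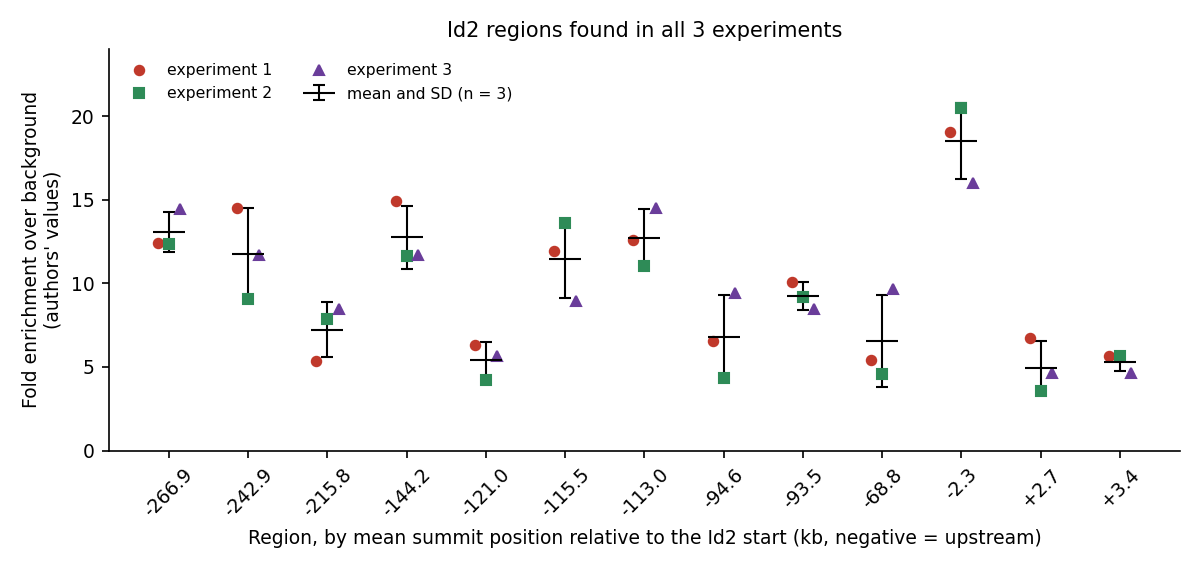
Authors' fold enrichment (vertical axis) at the 13 Id2 regions found in all 3 experiments, ordered by position (horizontal axis, kb from the start), with a symbol per experiment and the mean with SD (n = 3) in black. The region at -2300 bp stands highest at 18.5 ± 2.29, and the sites at -266852, -144244 and -112990 bp follow at 13.1, 12.8 and 12.7 with overlapping errors.

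Ordered by mean fold, the 13 regions fell from 18.5 to 4.97 with a median of 9.24, against a median of 5.70 over all regions in 3 lists. The leading region stood apart from the next by more than their SDs. The sites at -266852, -144244, -112990, -242927 and -115452 bp followed, between 13.1 and 11.5. Each of these did not differ from the next of them beyond their spread. Pileup was highest in experiment 3 at 12 of the 13 regions and lowest in experiment 2 at 12 of 13, the same order as the median pileups of the whole lists. The order of the regions was shared between experiments, with a Spearman's rho across the 13 regions of 0.80 to 0.94 for pileup and 0.69 to 0.70 for fold. These points share their libraries, and the rho values are descriptions.

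Summits coincided closely. The distance between the outermost summits of a region had a median of 25 bp over the 13 Id2 regions, from 6 to 444 bp, and a median of 60 bp over all 10328 regions in 3 lists. The 16 regions found in 2 experiments were weaker, with mean folds from 3.32 to 6.08 and a median of 4.29, close to the 4.30 of such regions genome-wide. The 32 regions of 1 experiment had a pileup from 8 to 25 and a fold from 2.78 to 6.59, with a median of 4.02.

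Most Id2 peaks stood on a raised local background. A background per peak was recovered from pileup and fold, and each list had a lowest value that many of its peaks shared, 1.82, 1.32 and 2.33. Of the Id2 peaks, 28 of 31, 30 of 34 and 39 of 39 had a background above it (90.3%, 88.2% and 100%), against 66.4%, 53.7% and 60.1% of all peaks. At the leading region it was 2.56, 1.59 and 4.37, so the fold there was computed against more than the lowest background. The part that background played in the number of peaks was not tested.

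Reproducible regions were packed at 8.26 per 100 kb over the Id2 span, against 0.758 per 100 kb over the main chromosomes. The gap from a reproducible region to the next had a median of 5854 bp at Id2 and 24794 bp genome-wide. The widest gap, 32622 bp, separated the regions at -12993 and -45864 bp and set the regions near the gene apart from the upstream series. The genome was also divided into 7785 tiles of 350000 bp. Regions in a tile were counted whatever gene they were assigned to. The tile with most of the upstream series held 19 reproducible regions, not all of them assigned to Id2, a number that 118 tiles reached. All 19 were distal intergenic, a number that 1 tile reached, its own. The median tile held 1 reproducible region and 0 distal intergenic ones. Since Id2 was chosen for its count, these values describe the choice.

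Much of the stretch called intergenic by the authors' annotation holds lncRNA genes in RefSeq. Of the 24 reproducible distal regions, 12 lay over such a gene, as did 7 of the 10 found in all 3 experiments. Among all 54 distal regions at Id2, 25 did (46.3%), close to the 50% of the reproducible ones. Over the main chromosomes, 18.8% of reproducible distal regions lay over a RefSeq lncRNA gene. The share was 15.1% of all distal regions there and 20.4% of those in all 3 experiments. The 12 regions at Id2 lay over few genes, mostly Gm36287, and are not independent. Gm36287 (chr12:25139540-25230206) overlapped 19 regions, of which 11 were reproducible and 6 were in all 3 experiments. Gm36496 (chr12:25187505-25190844), which lies within it, overlapped the pair at -93526 and -94551 bp. Gm36441 (chr12:25207602-25209601) overlapped 2 regions, among them the reproducible one at -112990 bp, and Gm36723 (chr12:25355901-25471867) overlapped 6, among them the reproducible one at -266852 bp. Gm17746 and Gm46343, also in the span, overlapped none. A noncoding locus upstream of Id2, Rroid, is known to act on Id2 in innate lymphoid cells; no region was matched to it here.

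The adjoining genes on either side of Id2 carried few reproducible regions. Kidins220, the protein-coding gene on the downstream side, had 10 regions and 0 of them reproducible. Gm22527, on the upstream side, had 22 regions over 603654 bp, of which 2 were reproducible, both in all 3 experiments. Of all merged regions, 23.8% were reproducible. Within 500000 bp of the Id2 start lay 5 other protein-coding starts, and 3 of these genes had a reproducible region. They were Klf11 with 2 of 2 regions, Rrm2 with 2 of 4 and Mboat2 with 1 of 4, while Cys1 and Kidins220 had none. Within the same distance of Id3 lay 21, of which 14 had one. Over all protein-coding genes, 44.8% had one, and with so few genes these counts say little about either locus. Assignment by nearest start does not show which gene a site acts on. Counting regions within 100000 bp of the Id2 start, whatever their assignment, left 12 reproducible regions and 6 in all 3 experiments.

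Far fewer peaks were assigned to Id3. It was assigned 2, 2 and 3 peaks in experiments 1, 2 and 3, which merged into 6 regions spread from 65 to 12161 bp downstream of its start. Of these, 1 was reproducible (16.7%, against 23.8% of all merged regions) and 0 were found in all 3 experiments (against 12.2%). With 6 regions, these shares say little about Id3. The reproducible region (chr4:136144626-136145046) lay inside the gene, 972 bp downstream of the start, with a pileup of 15 in experiment 1 and 12 in experiment 3 and no peak in experiment 2. Its fold was 5.04 and 3.90, a mean of 4.47 ± 0.80 (SD, n = 2). The summits were 157 bp apart, and the region was no longer counted when experiment 1 or experiment 3 was left out, or when summits had to lie within 100 bp.

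The other 5 Id3 regions each came from 1 experiment and had a pileup of 11. At the start, experiment 3 alone had a peak (65 bp, fold 3.31), which covered 15 bp, or 6%, of the Id3 window printed above. Experiment 2 had peaks at 4101 bp (4.64) and 9264 bp (3.55), experiment 1 at 4888 bp (3.97) and experiment 3 at 12161 bp (3.31). None of the 5 exceeded the median pileup of its list.

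Some stronger sites near Id3 were assigned to other genes. Within 100000 bp of its start lay 9 reproducible regions, 6 of them in all 3 experiments. E2f2, which encodes a cell cycle transcription factor, took 4, all in 3 experiments. Those at 31190 and 33989 bp from the Id3 start were the strongest, with a pileup of 27, 27 and 46 (fold 9.34 ± 3.65, SD, n = 3) and of 20, 20 and 36 (8.07 ± 1.05). The other 2 E2f2 regions, at 29250 and 46263 bp, had folds of 4.64 ± 1.83 and 4.92 ± 2.13. On the upstream side, Gm13009 took 3 regions and Rpl11 took 1. The Gm13009 folds were 3.87 ± 0.76 and 5.33 ± 1.95 (n = 3 each) and 4.35 ± 1.70 (n = 2). The Rpl11 fold was 5.75 ± 0.90 (n = 2). The reproducible Id3 region, at 4.47, lay within this range.

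**Figure D4:**
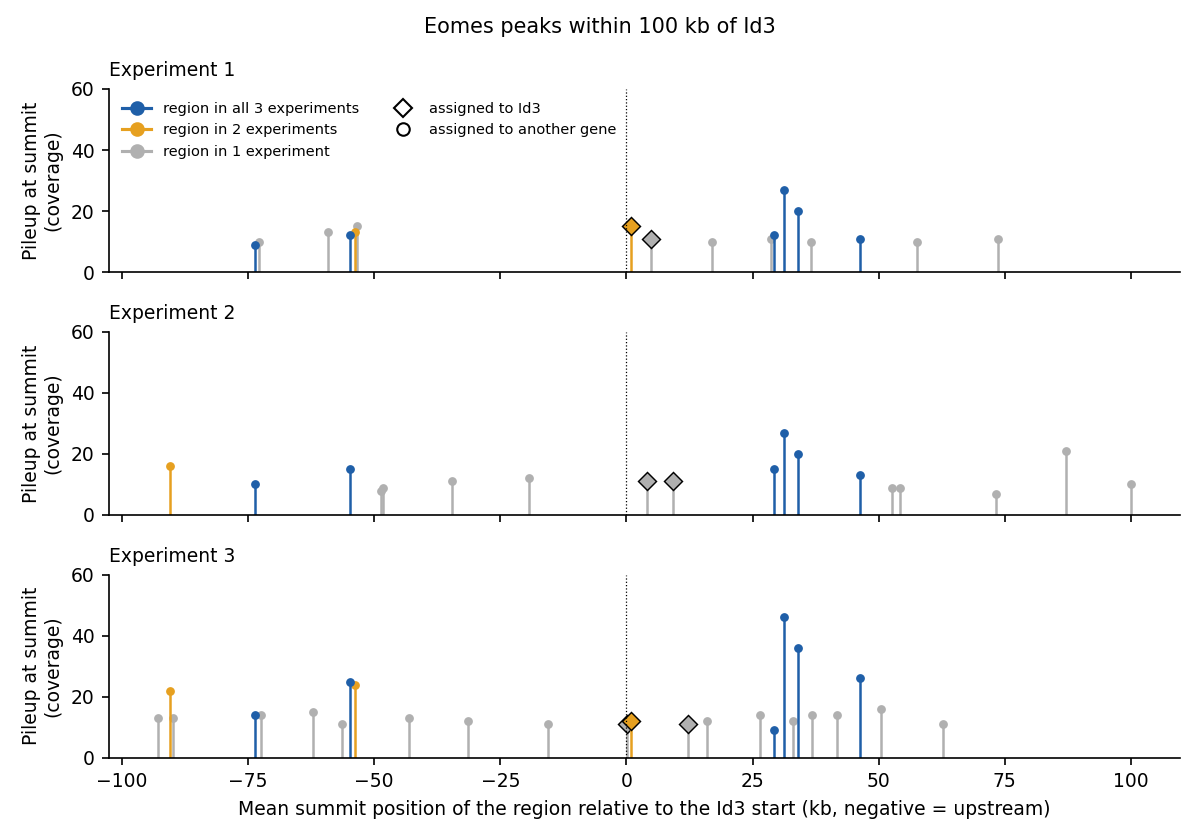
Pileup (vertical axis, coverage) of each region within 100 kb of the Id3 start by distance from it (horizontal axis, kb), 1 panel per experiment, with diamonds for regions assigned to Id3 and circles for those of other genes. The diamonds stay between 11 and 15, while the circles near 31190 bp reach 27, 27 and 46.

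By assigned regions, Id2 and Id3 stood at different places among the 21887 protein-coding genes. The regions assigned to Id2 spanned 350913 bp and those assigned to Id3 12239 bp. Within 100000 bp of each start, whatever the assignment, the counts were closer, with 12 reproducible regions at Id2 and 9 at Id3. In those windows, 6 regions at each gene were in all 3 experiments. At Id2, 12 of 27 regions assigned to Id2 and 0 of 2 to Kidins220 were reproducible. At Id3 it was 1 of 6 assigned to Id3, 4 of 12 to E2f2, 3 of 12 to Gm13009 and 1 of 3 to Rpl11. Asap3, Gm26001 and Tcea3 had 0 of 7, 0 of 4 and 0 of 2 there. Of all merged regions, 23.8% were reproducible and 12.2% were in all 3 experiments. By reproducible regions, Id2 had rank 1 with 29, followed by Mroh2a with 26, Gse1 with 25, and Nfatc1 and Septin9 with 20 each. By regions in all 3 experiments it shared rank 3 with Gse1 at 13, after Mroh2a with 15 and the mRNA decay gene Zfp36l2 with 14, and by regions of any kind it had rank 4. The symbol AC149090.1, on an unplaced scaffold and outside the RefSeq table, had 46 reproducible regions, so the first place of Id2 holds for protein-coding RefSeq genes. Id3 was among the 6282 genes with a count of 1. By the number of peaks in each experiment, the genes most like Id2 were Mroh2a (27, 33 and 35), Septin9 (29, 26 and 39) and Nfatc1 (27, 29 and 36), while 171 genes had the same 3 numbers as Id3.

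**Figure D5:**
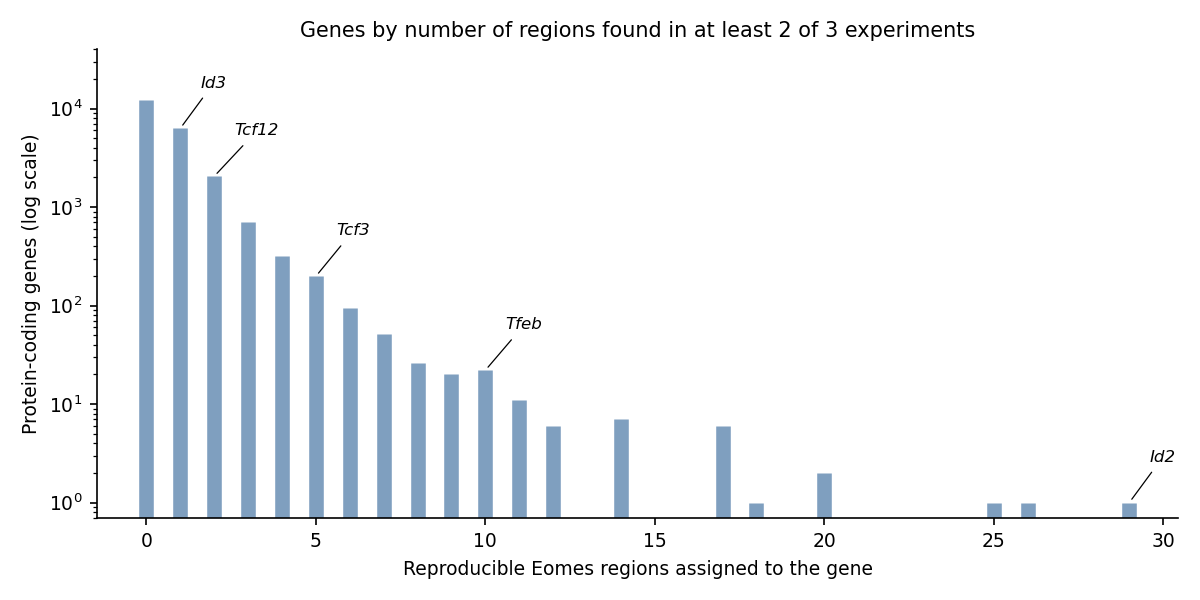
Number of protein-coding genes (vertical axis, log scale) by the number of reproducible Eomes regions assigned to them (horizontal axis). Id2 stands alone at 29, Id3 is among the 6282 genes with 1, and 12085 genes have 0.

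A list of 28 other genes was also examined. It held 2 Id genes, 3 E protein genes, 15 other helix-loop-helix genes and 8 genes tied to E protein activity. Of these, 20 had a reproducible region (44.8% of all protein-coding genes did) and 16 had a region in all 3 experiments (29.8%). The median was 2 reproducible regions per gene, with a maximum of 10, against a median of 0 over all genes. The remaining Id genes, Id1 and Id4, had 1 reproducible region each, with folds of 4.38 ± 1.12 and 4.52 ± 2.14 (SD, n = 2 each). They had 0 in all 3 experiments. A count of 1 was that of 28.7% of protein-coding genes, and Id2 was chosen for its high count.

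The 3 E protein genes, whose products the Id proteins bind, each had a region in all 3 experiments, led by a promoter region. Tcf3, which encodes E2A, had 5 reproducible regions, led by one with a fold of 8.19 ± 2.74 (SD, n = 3). Tcf4 had 4, led by 8.49 ± 2.47, and Tcf12, which encodes HEB, had 2, led by 7.73 ± 1.06.

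Among 15 other helix-loop-helix genes, 11 had a reproducible region and 9 had one in all 3 experiments. Tfeb, which encodes a regulator of lysosomal genes, had the most, with 10, of which 6 were in all 3 experiments, led by 10.3 ± 2.35 (SD, n = 3). Bhlhe40, a repressor, had 2 and the highest fold of the list (24.6 ± 5.41), and Mxd4, a MAX partner, had 4, led by an exonic site with 14.4 ± 2.30. The growth regulator Myc had 5, led by its promoter (8.66 ± 3.23). Tal2, Hey1, Ascl2 and Usf1 had none.

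Of 8 genes tied to E protein activity in lymphocytes, 4 had a reproducible region, a share near the 44.8% of all protein-coding genes. Tcf7, which encodes TCF-1, had 4, led by a site with 20.9 ± 2.87 (SD, n = 3), and the chemokine receptor gene Cxcr5 had 2, led by an intronic site with 16.4 ± 1.49. Socs3, a cytokine signalling inhibitor, had 5, all in 3 experiments, led by 5.74 ± 0.40, and the chemokine receptor gene Ccr7 had 5, led by 8.28 ± 3.13. The recombinase genes Rag1 and Rag2, the pre-T cell receptor gene Ptcra and the IL-7 receptor gene Il7r had none.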

How the data were processed

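Peaks were called per experiment, IP against its own input, per the labels; no label or header names the peak caller. The submitters' processing notes name mm10, Novoalign (alignment) and ChIPseeker (annotation), without versions. The authors deposited for each peak a pileup (a coverage signal), a fold enrichment (a ratio to background), and −log10 p-values and q-values, per the file headers. These values describe and rank peaks within each list; means ± SD over experiments describe a region.

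Rows of 1 interval were collapsed to the summit with the highest −log10 q-value. Intervals sharing at least 1 bp were merged, and a merged region keeps the strongest peak of each experiment. The merging was checked on simulated data and against bedtools 2.31.1 (20126 reproducible regions by both). The simulated sites lay too far apart to be joined, so they did not test how close sites are merged. The background was (pileup + 1) / fold - 1, and a Poisson tail at that background differed from the deposited −log10 p-value by at most 0.000336. Scripts used Python 3.11.15 and pandas 2.3.3. Genes, starts and promoter sequences came from RefSeq GRCm38.p6.

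Regions of Id2 found in all 3 experiments (the 12 highest by summed rank) and the region at each start were to be given in full; the 13th, at 2688 bp, was added after its values were seen. The leading Id3 region was to come from regions in all 3 experiments; as Id3 had 0, its 1 reproducible region was used. Of the genes listed, 2 are not reported here and enter no count of a list. The members, gene lists and motifs were chosen with earlier results of these data known. No test was made, since the members were chosen from these lists. Alternatives were stricter peaks, other overlap rules, other assignment, another sub-peak rule and leaving out each experiment.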

Additional observations from a re-analysis of the deposited data

How the results depend on the processing

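The 29 reproducible Id2 regions became 26 with a −log10 q-value of at least 2, 21 when each peak had to cover 50% of the other, 26 with summits within 100 bp, 12 within 100000 bp of the start, and 14 to 23 when an experiment was left out. The 13 Id2 regions in all 3 experiments became 10 to 13 under the first 3 settings and 6 within 100000 bp. The 1 reproducible Id3 region became 0 with summits within 100 bp, 9 within 100000 bp and 0 to 1 when an experiment was left out. The 0 Id3 regions in all 3 experiments became 6 within 100000 bp, where regions assigned to other genes are counted. The leading Id2 fold ran from 17.5 to 19.8 when an experiment was left out, and the Id3 fold of 4.47 had no value without experiment 1 or 3. Another sub-peak rule changed neither fold. Depth limits detection to the lowest pileups of each list. No paired analysis was possible because no result here comes from a test; the pairing of each IP with its input is already part of every fold.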
